A study of Rattus norvegicus with 10 samples.

Results

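The transcripts of 10 integrin chains named for glial adhesion to the extracellular matrix were followed in rat oligodendrocytes (OLs) and oligodendrocyte progenitor cells (OPCs). Members were chosen by gene symbol in the authors' gene table. The rule itself sets no measured value, but the study had filtered that table on read counts. The list was drawn up with earlier results of these data known. Of the 10, 9 were found among the 16129 genes of that table (23487 genes were counted in all): Itga3, Itga5, Itga6, Itga7, Itgav, Itgb1, Itgb3, Itgb4 and Itgb8. Itgb5 was matched neither by symbol nor by Entrez number and has no value here. All 9 had enough counts to be tested in every comparison.

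RNA came from primary cells of Sprague-Dawley rat pups, sequenced in 10 libraries, with 2 replicates in each of 5 groups. OLs were taken 5 days after transfection with a miR-145-5p mimic (OL miR-145), with miR-145-5p and miR-219 mimics together (OL miR-145+miR-219) or with a scrambled mimic (OL miR-ctl). OPCs were taken 24 h after transfection with a miR-145-5p inhibitor (OPC anti-miR-145) or a scrambled inhibitor (OPC anti-miR-ctl). Oligonucleotides were used at 30 nM. The OPCs had been shaken off mixed glial cultures of neonatal cortex and enriched by differential adhesion, so other glia could remain, and no cell was sorted. OPCs were kept in medium with FGF2 and PDGFAA, and OLs were differentiated with T3 and CNTF. The treatment tag of both OL miR-145 libraries lists miR-219 as well, but their titles do not, and the titles were followed. In the study's methods the RNAseq cells are described as transduced with lentivirus. Its results describe treatment with miR-145-5p mimics in place of lentivirus, and the labels describe transfection with mimics. The labels number the libraries N1 and N2 without saying what a number marks. The study's reporting summary takes N in primary culture as cultures of 1 animal, but names the mouse where these cells are rat, so whether the 2 libraries of a group came from separate animals is taken from that statement alone.

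Integrins are paired receptors of an alpha and a beta chain that bind matrix proteins outside the cell and, through adaptors such as talin and kindlin, the actin cytoskeleton inside it. Itgb1 is the common beta chain. It pairs with Itga3, Itga6 and Itga7, the alpha chains of laminin receptors, and with Itga5, the alpha chain of the classical fibronectin receptor. Itgb4 pairs with Itga6 alone and anchors epithelial cells in hemidesmosomes. Itgav pairs with Itgb1, Itgb3, Itgb5 or Itgb8 to bind ligands such as vitronectin and osteopontin, and its pair with Itgb8 is known for releasing active TGF-β. In the OL lineage, laminin receptors containing Itga6 are known for their part in the survival of newly formed OLs, and the beta partners of Itgav are known to change as progenitors differentiate.

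The treatments that separate the groups are short RNAs, and a microRNA finds its targets mainly through its seed. The mature rat sequences are shown because they define the treatments, with the seed, bases 2 to 8, in capitals. They come from RefSeq (build GRCr8). The miR-145-5p mimic is stated to have the mature sequence, whereas the sequence of the miR-219 mimic is not stated and miR-219a-5p is given as the mature form of that name.
rno-miR-145-5p: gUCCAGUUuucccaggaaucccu
rno-miR-219a-5p: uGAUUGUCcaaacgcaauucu
The seeds differ. Sites of these seeds in integrin transcripts were not analysed here.

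RefSeq promoter windows, from 250 bases before to 50 bases after the annotated start (GRCr8), were matched for 6 of the 10 listed genes. The windows of Itga3 and Itga5 are shown because these 2 genes moved furthest, in opposite directions, when miR-145-5p was inhibited in OPCs. Capitals mark the GC box, GGGCGG on either strand.
Itga3 promoter, chr10:80518852-80519151, minus strand: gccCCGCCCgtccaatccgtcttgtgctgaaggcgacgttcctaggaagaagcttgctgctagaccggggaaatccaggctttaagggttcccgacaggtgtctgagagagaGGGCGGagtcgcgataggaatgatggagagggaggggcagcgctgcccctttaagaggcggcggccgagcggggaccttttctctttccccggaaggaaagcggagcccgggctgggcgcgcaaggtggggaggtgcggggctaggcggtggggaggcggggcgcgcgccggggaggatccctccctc
Itga5 promoter, chr7:136381256-136381555, minus strand: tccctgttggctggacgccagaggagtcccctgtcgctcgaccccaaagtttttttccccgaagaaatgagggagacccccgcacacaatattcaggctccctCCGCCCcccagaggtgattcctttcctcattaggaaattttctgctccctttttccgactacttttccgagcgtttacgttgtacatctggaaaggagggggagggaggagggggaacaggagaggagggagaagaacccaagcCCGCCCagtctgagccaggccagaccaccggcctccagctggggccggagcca
Each window held 2 GC boxes. Among the other matched members, Itgav had 2, Itgb1 had 4, Itgb8 had 1 and Itgb5 had 0, and 33.1% of all 33465 promoter windows of this length held at least 1. Neither TATAAA nor the AP-1 motif TGANTCA, each searched on both strands, occurred in any of the 6 windows, and 14.2% and 7.33% of all windows held them. The Itga3 window had 27 CpG dinucleotides and the Itga5 window 13, against a median of 7 over all windows. A match describes these letters and no more.

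Library totals ran from 33505706 to 42684206 estimated counts. Levels are CPM (counts scaled to a fixed library size) after TMM scaling over all 10 libraries. They are compared for 1 gene across libraries and not between genes, since no transcript lengths were available. Markers followed the labelled stages. The summed level of 9 maturing OL markers was 16015 to 35284 CPM in OL libraries against 1120 to 1326 CPM in OPC libraries, and that of 7 OPC markers was 2429 to 3156 against 6120 to 8300 CPM. Other cells' markers were present too. The 8 astrocyte markers summed to 5408 to 13332 CPM in OLs and to 405 to 659 CPM in OPCs, and the 12 microglia markers to 407 to 1090 CPM in OLs and 938 to 1184 CPM in OPCs. No marker that was found was at 0 in both libraries of a group. Markers could be found only in the authors' table, which the study filtered on reads, so absent markers could drop out beforehand. Not found were the endothelial markers Pecam1 and Cldn5, the fibroblast or mural markers Col1a2, Lum and Rgs5, and the neuron marker Snap25. In bulk RNA, fewer cells of a type and less RNA per cell cannot be told apart.

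**Figure D1:**
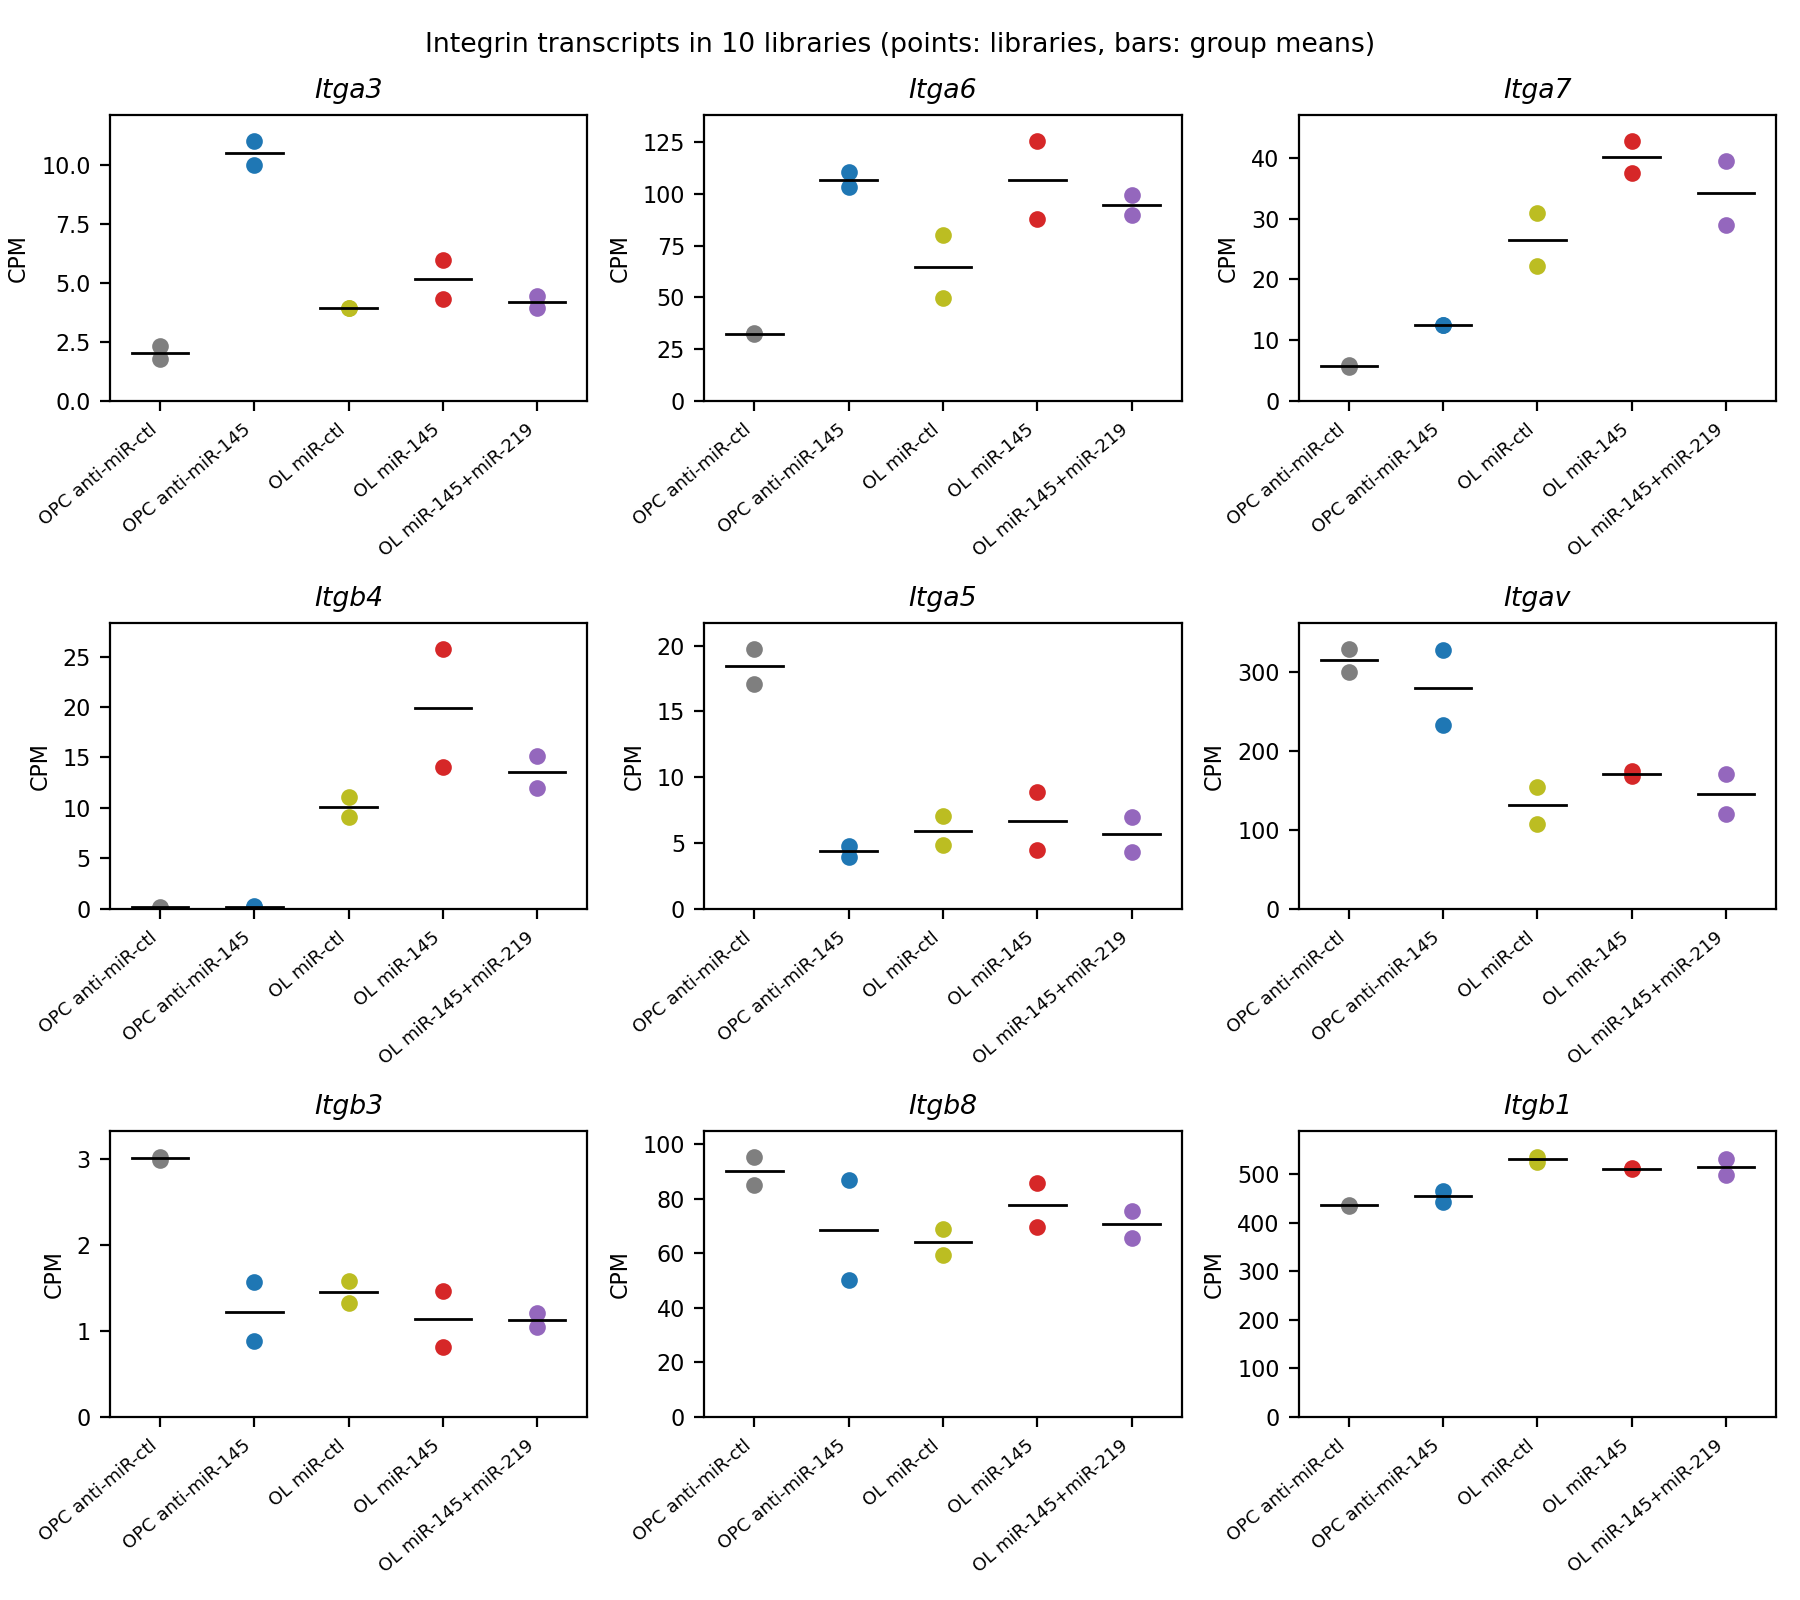
Level of each of 9 integrin chains (vertical axes, CPM, each starting at 0) in the 5 groups (horizontal axes), with 1 point per library and a bar at the mean of 2 libraries. Itgb1 stays within 435 to 536 CPM, Itgb4 is at or below 0.251 CPM in every OPC library, and Itga3 and Itga5 part in opposite directions between the 2 OPC groups.

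Itgb1, the shared partner, varied least of the 9 chains. Its lowest level was 435 CPM in an OPC anti-miR-ctl library and its highest 536 CPM in an OL miR-ctl library, a ratio of 1.23 over all 10 libraries. Itgb4 varied most, from 0.109 CPM in an OPC anti-miR-ctl library to 25.8 CPM in an OL miR-145 library. The other 7 chains spanned ratios from 1.90 for Itgb8 to 7.74 for Itga7.

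The order of the 5 groups differed by chain. Itga7, a laminin receptor alpha chain, averaged 40.2 CPM in OL miR-145, 34.3 in OL miR-145+miR-219, 26.6 in OL miR-ctl, 12.5 in OPC anti-miR-145 and 5.68 in OPC anti-miR-ctl, and neighbours in this order overlapped only among the OL groups. Itga6 averaged 107 CPM in both OPC anti-miR-145 and OL miR-145, then 94.7 in OL miR-145+miR-219, 64.8 in OL miR-ctl and 32.5 in OPC anti-miR-ctl, and the first 3 groups overlapped from neighbour to neighbour. Itga3 was highest in OPC anti-miR-145 at 10.5 CPM and lowest in OPC anti-miR-ctl at 2.03 CPM, with the OL groups between. Itga5 stood apart in OPC anti-miR-ctl at 18.4 CPM, and the other 4 groups, from 4.35 to 6.66 CPM, overlapped from neighbour to neighbour. For Itgb8, no neighbouring groups were separate.

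Control OLs were compared first with control OPCs. Stage, medium, time after transfection and the kind of control oligonucleotide all differ between these groups and cannot be told apart. The laminin-binding chains Itga3, Itga6, Itga7 and Itgb4 were higher in OLs, Itgb1 was slightly higher, and Itga5, Itgav, Itgb3 and Itgb8 were lower. All 9 passed edgeR's quasi-likelihood test at a Benjamini-Hochberg adjusted p under 0.05, 5 higher and 4 lower. Itgb4 entered the test only through the OL libraries, where it is high, and so had to differ. Without it 8 chains were called, 4 higher and 4 lower. Such calls were common: 57.5% of all genes tested were called, 28.8% higher and 28.7% lower. The libraries of the groups did not overlap for any of the 9, as for 81.8% of all genes.

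Itgb4 was the chain nearest to absence in OPCs. OPC anti-miR-ctl libraries held 0.162 and 0.109 CPM, from 7 and 4 estimated counts, and OL miR-ctl libraries held 9.09 and 11.1 CPM. The fitted log2 fold change was 6.15 ± 0.28 (SE) and is given as a description, since the transcript was barely detected in OPCs.

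Itga7 was at 5.54 and 5.83 CPM in control OPCs and at 22.2 and 30.9 CPM in control OLs. Its log2 fold change of 2.21 ± 0.19 had an adjusted p of 5.81e-04 by edgeR. Itga6 went from 32.8 and 32.1 CPM to 49.6 and 80.0 CPM, with a log2 fold change of 0.98 ± 0.23 (edgeR adjusted p = 0.0165). The 2 OL values lie far apart, so the size of the Itga6 difference is loosely set. Itga3 rose from 1.75 and 2.30 CPM to 3.94 and 3.92 CPM (log2 fold change 0.95 ± 0.22, edgeR adjusted p = 0.0168).

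Among the receptors of fibronectin and related ligands, Itga5 was at 19.8 and 17.1 CPM in control OPCs and at 4.87 and 7.02 CPM in control OLs. Its log2 fold change was -1.65 ± 0.21 (edgeR adjusted p = 0.00203). Itgav was at 329 and 300 CPM in OPCs and at 154 and 108 CPM in OLs, a log2 fold change of -1.28 ± 0.18 (edgeR adjusted p = 0.00299). Both alpha chains were therefore lower in every OL control library than in either OPC control library. Of the beta partners of Itgav, Itgb3 was at 3.02 and 2.98 CPM in OPCs and 1.58 and 1.32 CPM in OLs (log2 fold change -1.06 ± 0.23), and Itgb8 was at 95.4 and 85.2 CPM against 59.4 and 68.8 CPM (-0.51 ± 0.11). Their edgeR adjusted p-values were both 0.012.

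Itgb1 was at 435 and 437 CPM in control OPCs and at 536 and 525 CPM in control OLs. The difference was small, 0.27 ± 0.07 on the log2 scale, with an edgeR adjusted p of 0.0274. Without OPC anti-miR-ctl replicate 1, 4 of the 9 calls held (Itga5, Itga7, Itgav and Itgb4), and without its replicate 2, 5 held (those 4 and Itgb8), while the share of all genes called fell to 31.9% and 31.4%. Itgb8 was not called when the 5 groups were fitted together (edgeR adjusted p = 0.104).

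Markers of other cells also differed between these control groups. By edgeR 7 of 8 astrocyte markers were higher in OLs and 0 lower, led by Gfap (4484 against 7.96 CPM, 9.12 ± 0.15) and Aqp4 (9.43 ± 0.21), and 1 of 12 microglia markers was higher and 5 were lower, led by Ptprc (-3.03 ± 0.17) and Aif1 (-3.04 ± 0.19). Of 9 maturing OL markers 8 were higher (Myrf 2.94 ± 0.13, Cldn11 7.13 ± 0.41), and of 7 OPC markers 6 were lower, among them Olig1 (-1.33 ± 0.08), and 1 was higher (Gpr17, 3.74 ± 0.21). Whether astrocytes or microglia in the cultures carried part of the integrin differences was not tested.

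The inhibitor of miR-145-5p in OPCs was compared next with its control, which asks what removing miR-145 activity changes in progenitors. The 3 laminin-binding alpha chains Itga3, Itga6 and Itga7 rose, by 5.15-, 3.26- and 2.18-fold. Itga5, the fibronectin receptor chain, was 4.28-fold lower, and Itgb3 was 2.47-fold lower. Of the 9 chains, 5 were called by edgeR at an adjusted p under 0.05, 3 higher and 2 lower, against 28.1% of all genes tested (12.1% higher and 16% lower). Libraries did not overlap for 6 of the 9, as for 68.6% of all genes.

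Itga3 was at 1.75 and 2.30 CPM in OPC anti-miR-ctl and at 11.0 and 9.98 CPM in OPC anti-miR-145. Its log2 fold change was 2.36 ± 0.18 (SE, edgeR adjusted p = 1.68e-04), so that inhibited OPCs held more Itga3 than any OL library. Itga6 was at 32.8 and 32.1 CPM in the control and at 103 and 111 CPM with the inhibitor (1.70 ± 0.08, edgeR adjusted p = 5.57e-05). Itga7 was at 5.54 and 5.83 CPM against 12.5 CPM in both inhibitor libraries (1.12 ± 0.12, edgeR adjusted p = 5.86e-04).

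Itga5 was at 19.8 and 17.1 CPM in the control and at 4.75 and 3.96 CPM with the inhibitor. The log2 fold change was -2.10 ± 0.15 (edgeR adjusted p = 1.34e-04). Itgb3, a beta partner of Itgav, was at 3.02 and 2.98 CPM against 0.880 and 1.56 CPM (-1.31 ± 0.29, edgeR adjusted p = 0.0158). In these 2 chains both inhibitor libraries lay below both control libraries.

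The other 4 chains were not called. Itgb1 was at 435 and 437 CPM against 444 and 466 CPM, and the 95% interval of its log2 fold change, -0.14 to 0.23, spans 0, although both inhibitor libraries lay above both controls. Itgav was at 329 and 300 CPM against 232 and 327 CPM (-0.18 ± 0.15), and Itgb8 at 95.4 and 85.2 CPM against 50.2 and 87.0 CPM (-0.41 ± 0.22). The inhibitor replicates of both chains lay apart from each other, with replicate 1 the lower. Without OPC anti-miR-145 replicate 2, Itgav (-0.44, edgeR adjusted p = 9.16e-04) and Itgb8 (-0.85, edgeR adjusted p = 2.17e-05) were called lower, and 7 chains were then called against 46.7% of all genes. Itgb4 stayed at 10 and 7 estimated counts with the inhibitor against 7 and 4, too few to resolve a difference (95% interval -0.75 to 1.86).

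Markers of other cells moved in the same comparison. Of 12 microglia markers, 7 were higher and 4 lower by edgeR, among them C1qb (1.34 ± 0.12) and Ptprc (-1.52 ± 0.12), with summed levels of 938 to 1184 CPM with the inhibitor and 980 to 1033 CPM in the control. Of 8 astrocyte markers, 1 was higher (Gfap, 2.53 ± 0.13) and 4 were lower, among them Slc1a3 (-1.06 ± 0.11). The part of these cells in the integrin differences was not tested. Of 7 OPC markers 3 were higher and 1 lower, with Olig1 at 0.65 ± 0.08 and Olig2 at 0.55 ± 0.08, and of 9 maturing OL markers 2 were higher and 2 lower, with Myrf at -1.24 ± 0.10 and Cldn11 at 1.15 ± 0.11. Of 4 fibroblast or mural markers tested, 0 were called by edgeR and by DESeq2 (1 at an unadjusted p under 0.05, Col1a1 with 0.76 ± 0.30, beside Tagln with 0.77 ± 0.45), of 4 endothelial markers 1 was lower (Flt1, -3.56 ± 0.19, beside Kdr with 0.97 ± 0.36, not called), and of 5 neuron markers 2 were higher (Nefl, 1.97 ± 0.19, and Rbfox3, 0.88 ± 0.13).

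**Figure D2:**
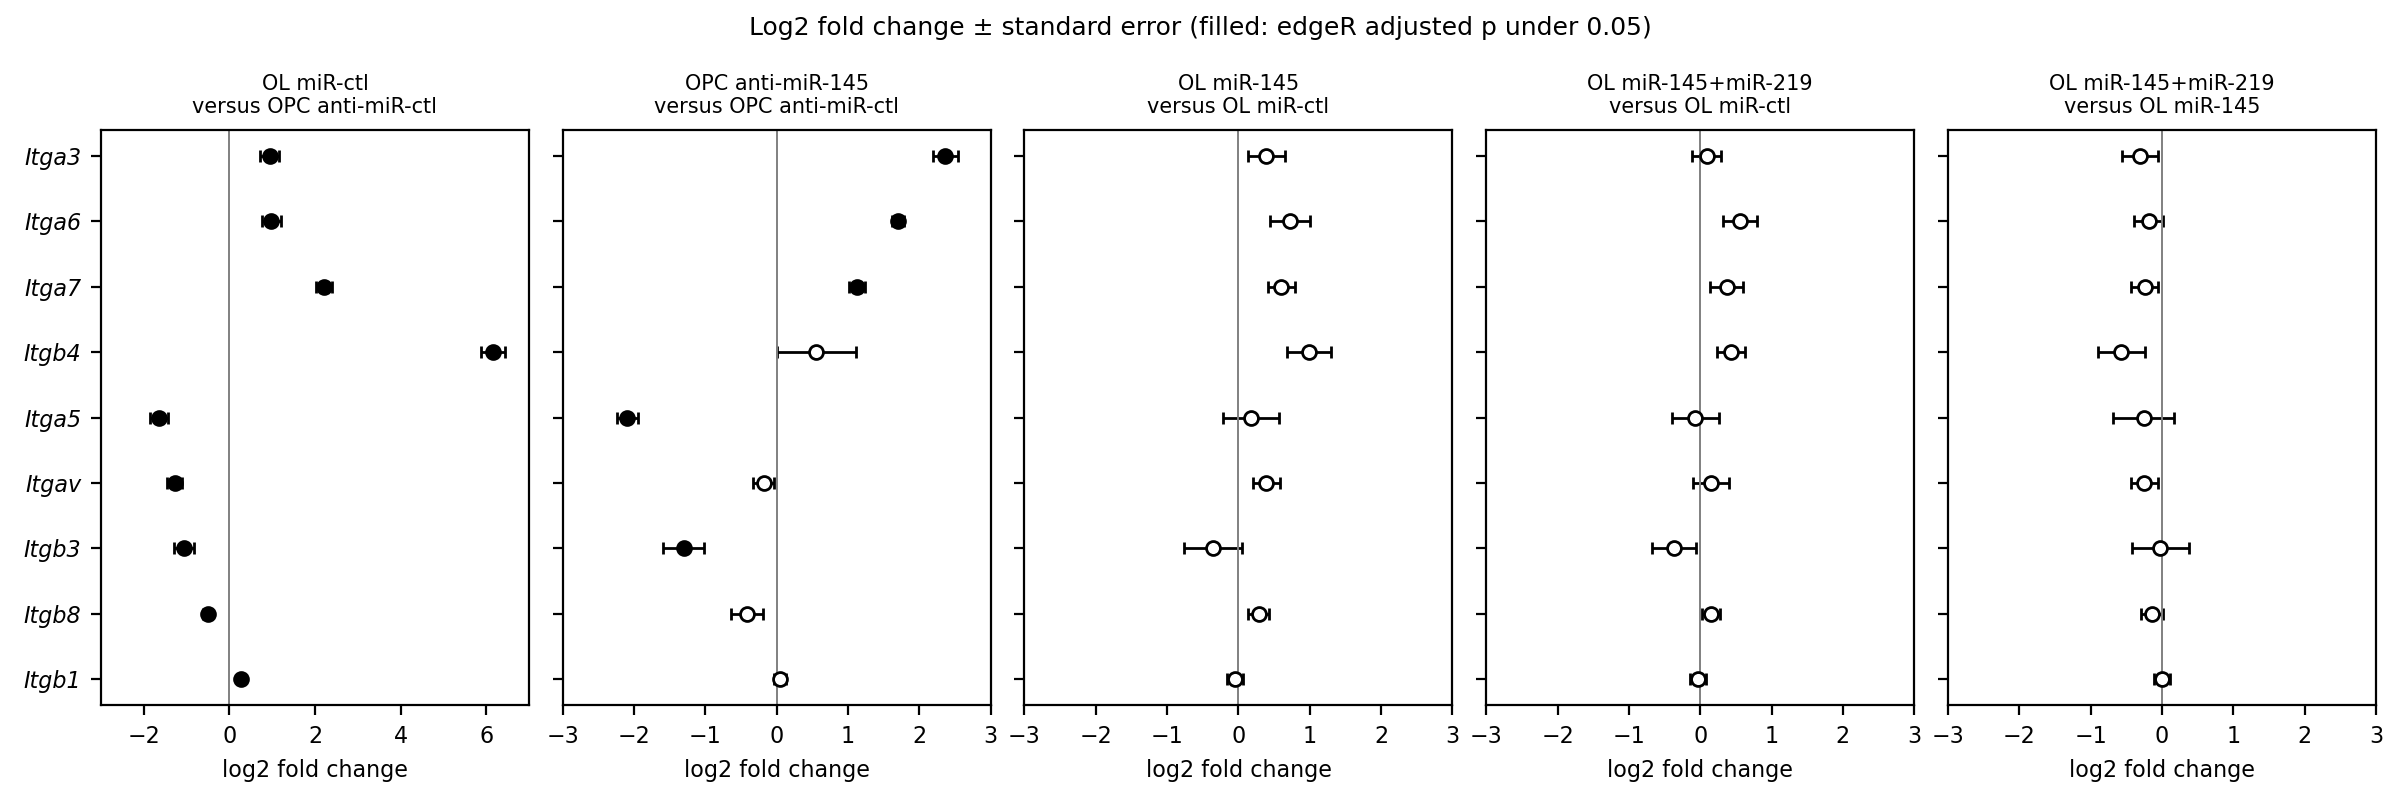
Log2 fold change of each integrin chain (horizontal axes) with its standard error in the 5 comparisons, n = 2 libraries a group. Filled points passed edgeR's test at an adjusted p under 0.05: all 9 chains between control OLs and control OPCs, 5 with the inhibitor in OPCs, and 0 in the 3 comparisons among OLs.

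The miR-145 mimic in OLs was compared with miR-ctl, which asks what excess miR-145 changes in differentiating cells. The laminin-binding chains Itga6, Itga7 and Itgb4 were 1.65-, 1.52- and 1.98-fold higher on average, but no chain was called by edgeR. The background was the same, with 0% of 15461 genes called. Both results come from a fit without a replicate term, and they changed with one, as given in the last section. The labels do not say what a replicate number marks. At an unadjusted p under 0.05 those 3 of the 9 chains passed, against 13.4% of all genes. DESeq2 called 0 of the 9 and 4.2% of all genes. Libraries did not overlap for 7 chains, 6 higher (Itga3, Itga6, Itga7, Itgav, Itgb4, Itgb8) and 1 lower (Itgb1), as for 47.3% of all genes, and the median log2 fold change of the 9 was 0.39 against -0.01 for all genes.

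Itgb4 was at 9.09 and 11.1 CPM in OL miR-ctl and at 14.1 and 25.8 CPM in OL miR-145, with a log2 fold change of 0.99 ± 0.31 (SE, edgeR adjusted p = 0.298). Without OL miR-145 replicate 2, the higher library, it was 0.48, and without replicate 1 it was 1.36. Itga6 was at 49.6 and 80.0 CPM against 87.6 and 126 CPM (0.73 ± 0.28, edgeR adjusted p = 0.365). Itga7 was at 22.2 and 30.9 CPM against 37.5 and 42.9 CPM (0.60 ± 0.19, edgeR adjusted p = 0.297). In all 3 chains both OL miR-145 libraries lay above both control libraries.

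Itgav was at 154 and 108 CPM in OL miR-ctl against 174 and 168 CPM in OL miR-145 (0.39 ± 0.19), and Itga3 was at 3.94 and 3.92 CPM against 4.31 and 5.96 CPM (0.39 ± 0.26). Itgb8 was at 59.4 and 68.8 CPM against 69.5 and 85.6 CPM (0.28 ± 0.15). In each of these 3 chains, and also in Itgb4, the group means differed by less than the replicates of at least 1 group did. The libraries of Itga5, at 4.87 and 7.02 against 4.46 and 8.87 CPM (0.17 ± 0.39), and of Itgb3, at 1.58 and 1.32 against 1.47 and 0.809 CPM (-0.35 ± 0.41), overlapped. Itgb1 was at 536 and 525 CPM against 511 and 512 CPM (-0.05 ± 0.11, 95% interval -0.33 to 0.24).

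Markers of astrocytes and microglia had positive log2 fold changes with the mimic, whereas most of those of the OL lineage were negative. All 8 astrocyte markers had OL miR-145 libraries above OL miR-ctl libraries (summed 9063 to 13332 CPM against 5408 to 6438 CPM, median log2 fold change 0.88), among them Aqp4 (1.14 ± 0.16) and Gja1 (1.68 ± 0.26). All 12 microglia markers had positive log2 fold changes and 4 did not overlap, with sums of 442 to 1090 CPM against 433 to 639 CPM, and Cx3cr1 (1.91 ± 0.35) and Trem2 (1.02 ± 0.34) had the smallest p. The 5 fibroblast or mural markers tested were also apart, among them Pdgfrb (1.15 ± 0.24) and Col3a1 (5.22 ± 1.35). Only 4 of these markers were tested with both mimics against the same control libraries. Not all 5 could therefore pass the count filter without the OL miR-145 libraries, and their separation is a description. No astrocyte, microglia, fibroblast or mural marker was called by edgeR. At an unadjusted p under 0.05, 7, 3 and 5 of the astrocyte, microglia and fibroblast or mural markers passed, against 13.4% of all genes. DESeq2 called 5, 1 and 2 of them, against 4.2% of all genes. Their part in the integrin values was not tested. Of 9 maturing OL markers 6 had negative log2 fold changes and 2 were apart and lower (median -0.23, Cnp -0.36 ± 0.20, Myrf -0.36 ± 0.20). Of 7 OPC markers 4 were apart and lower and 0 higher (median -0.37, 3 at an unadjusted p under 0.05, 1 called by DESeq2), with Gpr17 at -0.70 ± 0.19 and Olig2 at -0.37 ± 0.13. Of 4 endothelial markers 2 were higher and 2 lower without overlap (Kdr -1.27 ± 0.32, Cdh5 2.27 ± 0.63), and of 5 neuron markers 2 and 1 (Stmn2 1.49 ± 0.58, Nefl -1.07 ± 0.43).

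**Figure D3:**
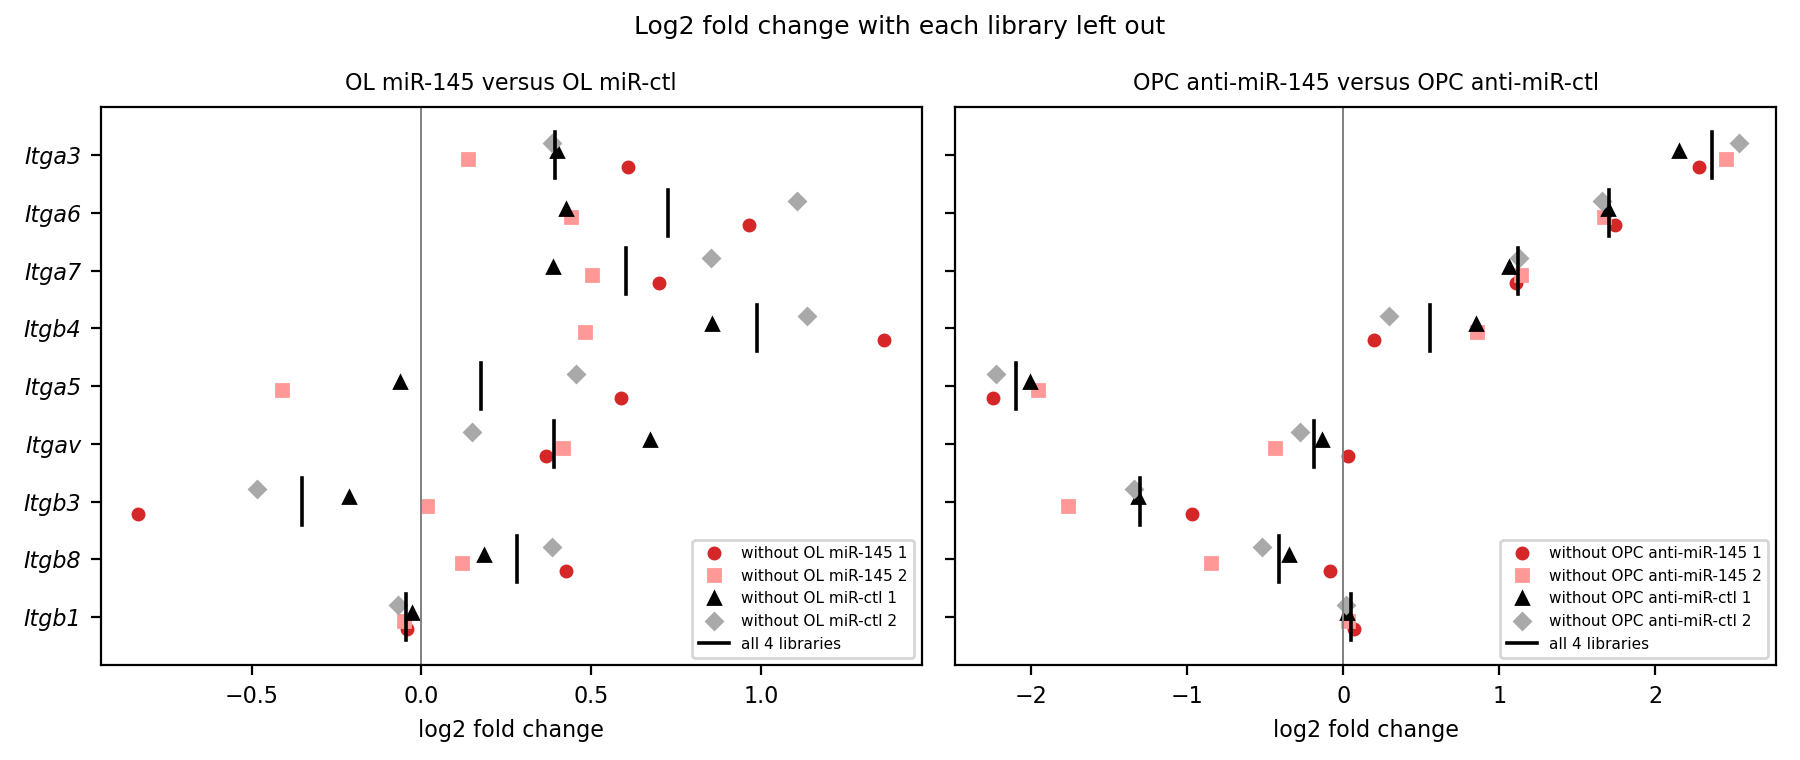
Log2 fold change of each chain (horizontal axes) with each of the 4 libraries left out in turn, for the mimic in OLs and the inhibitor in OPCs, with a black bar at the value from all 4. In OPCs every chain but Itgav keeps its direction whichever library is left out, while Itga5 and Itgb3 cross 0 in OLs.

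With both mimics, OLs were compared with the same OL miR-ctl libraries as above. Again no chain was called by edgeR, 0% of all genes were, and 0 of the 9 chains passed at an unadjusted p under 0.05, against 6.19% of all genes. DESeq2 called 0 of the 9 and 0.687% of all genes. Itga6, at 89.7 and 99.6 CPM, and Itgb4, at 11.9 and 15.1 CPM, lay above both control libraries (0.55 ± 0.24 and 0.43 ± 0.19), and Itgb3, at 1.20 and 1.04 CPM, lay below both (-0.37 ± 0.31). Libraries were thus apart for 3 of 9 chains, as for 36.8% of all genes. The other 6 overlapped the control. Of these, Itga7 was at 29.0 and 39.6 CPM (0.37 ± 0.23) and Itga3 at 4.42 and 3.93 CPM (0.09 ± 0.20). Itgav was at 170 and 119 CPM (0.15 ± 0.25), Itgb8 at 75.6 and 65.8 CPM (0.15 ± 0.13) and Itga5 at 4.30 and 6.99 CPM (-0.07 ± 0.32). Itgb1 was at 532 and 499 CPM (-0.03 ± 0.11, 95% interval -0.32 to 0.25). Astrocyte markers summed to 6503 to 11073 CPM in these OLs, and 8 of 8 had positive log2 fold changes against OL miR-ctl (median 0.58, 5 apart and higher, Gja1 at 1.38 ± 0.38). Microglia markers summed to 407 to 720 CPM, overlapping the control, with 8 of 12 positive (median 0.29, 3 apart and higher) and Cx3cr1 at 1.51 ± 0.17. All 4 fibroblast or mural markers tested were apart and higher (median 1.08), and 6 of 9 maturing OL markers were positive (median 0.23). The part of these cells was not tested.

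OLs with both mimics were then compared with OLs given miR-145 alone, a comparison that shares libraries with both others. No chain was called by edgeR (0% of all genes) and none passed at an unadjusted p under 0.05 (1.47% of all genes). DESeq2 called 0 of the 9 and 0.0581% of all genes. The libraries of the 2 groups overlapped for all 9 chains, whereas they were apart for 24.8% of all genes. The log2 fold changes ran from -0.57 ± 0.33 for Itgb4 (95% interval -1.43 to 0.29) to 0.00 ± 0.11 for Itgb1 (-0.28 to 0.29), and 8 of 9 were negative. Intervals of this width do not show that the groups were alike. In the same comparison 0 of 8 astrocyte markers (median -0.27), 0 of 12 microglia markers (median -0.45) and 1 of 6 fibroblast or mural markers (median -1.13) had positive log2 fold changes, against 9 of 9 maturing OL markers (median 0.36). Their part in the integrin values was not tested.

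The rest of the integrin family was read from a separate list. Of 7 other chains found, 3 were higher and 1 lower in control OLs than in control OPCs by edgeR, a share like the 57.5% of all genes. Itga8, an alpha partner of Itgb1, was far lower in OLs (29.6 against 283 CPM, -3.27 ± 0.21). Itga1, a collagen receptor chain, held 3.27 CPM in OLs against 0.128 CPM in OPCs (4.65 ± 0.47). Like Itgb4 (0.136 CPM), Itga1 was barely detected in control OPCs and could enter the test through the OL libraries. Its value is therefore a description, and the count of 3 higher is read with this limit. With the inhibitor in OPCs 1 of 7 was called, against 28.1% of all genes, Itga8 (405 against 283 CPM, 0.50 ± 0.10, edgeR adjusted p = 0.0113), and Itga2b had 0.85 ± 0.33. The leukocyte chains Itgb2, Itgam, Itgax and Itgal were all lower in control OLs than in control OPCs, with Itgb2 at -4.21 ± 0.14 and Itgax at -5.08 ± 0.17. All 4 were also lower with the inhibitor, with Itgam at -1.58 ± 0.10 and Itgal at -2.26 ± 0.16, and their summed level was 943 to 1090 CPM in OPC anti-miR-ctl and 195 to 265 CPM in OPC anti-miR-145. These 2 comparisons share the OPC anti-miR-ctl libraries. With the miR-145 mimic 0 of the 7 other chains and 0 of the 4 leukocyte chains were called by edgeR or DESeq2 or passed at an unadjusted p under 0.05, with Itga9 at -0.78 ± 0.32, Itga1 at 0.64 ± 0.31, Itgb2 at 0.96 ± 0.40 and Itgam at 1.24 ± 0.54.

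Among 16 matrix ligands found, 4 were higher and 5 lower in control OLs than in control OPCs, a share close to the 57.5% of all genes. The laminin chains Lamb2 (60.9 against 3.52 CPM, 4.10 ± 0.10) and Lama5 (34.8 against 4.94 CPM, 2.80 ± 0.20) were higher. With the inhibitor in OPCs 15 were tested, 3 were higher and 5 lower, against 28.1% of all genes. Spp1, which encodes osteopontin, a ligand of Itgav integrins, was lower (15.1 against 96.6 CPM, -2.69 ± 0.19), and the laminin chain Lamb3 was higher (3.13 against 0.741 CPM, 2.06 ± 0.24). With the miR-145 mimic 14 of 15 ligands had positive log2 fold changes, with a median of 0.91 against -0.01 for all genes. Of the 15, 12 were apart and higher and 1 apart and lower, where 47.3% of all genes were apart in either direction. None was called by edgeR, and 8 passed at an unadjusted p under 0.05, against 13.4% of all genes. DESeq2 called 5, against 4.2% of all genes, among them Lamb2 (113.9 against 60.9 CPM, 0.91 ± 0.11) and Lama5 (79.6 against 34.8 CPM, 1.20 ± 0.17).

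The cytoplasmic side of integrin adhesions was represented by 21 adaptors and kinases. In control OLs 10 were higher and 7 lower than in control OPCs (57.5% of all genes were called), led by Lims2 (3.62 ± 0.11) and the tensin Tns1 (4.05 ± 0.14). With the inhibitor in OPCs 5 were higher and 4 lower (28.1% of all genes were called), among them the Src family kinase Fyn (0.66 ± 0.08) and the talin Tln2 (-1.15 ± 0.13). With the miR-145 mimic 0 were called by edgeR, 5 by DESeq2 (4.2% of all genes) and 7 passed at an unadjusted p under 0.05 (13.4% of all genes). Directions were mixed, with 11 positive and 10 negative and a median of 0.04. Libraries were apart and higher for 7 and lower for 6, where 47.3% of all genes were apart. Parva (0.76 ± 0.14) and Vcl, which encodes vinculin (0.76 ± 0.15), had the smallest p.

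For TGF-β ligands and their latency partners, 6 were found. In control OLs 3 were higher and 2 lower, beside 57.5% of all genes, with Tgfb2 at 2.40 ± 0.13 and Tgfb1 at -2.64 ± 0.19. With the inhibitor in OPCs 0 were higher and 3 lower, beside 28.1% of all genes, among them Ltbp1 (-1.02 ± 0.13) and Tgfb1 (-1.06 ± 0.18). With the miR-145 mimic 0 were called by edgeR or DESeq2 and 0 passed at an unadjusted p under 0.05, with Nrros at 0.85 ± 0.37 and Tgfb1 at 0.85 ± 0.37. Of 5 hemidesmosome and tetraspanin partners of Itga6 and Itga3, 4 were higher and 1 lower in control OLs, with the tetraspanin Cd9 at 3.52 ± 0.09 and the plakin Plec at 3.15 ± 0.09. With the inhibitor in OPCs edgeR called 1 of 5 higher, Cd9 (0.63 ± 0.09), and DESeq2 called 2, Cd9 and Cd81 (0.26 ± 0.09, adjusted p = 0.0745 by edgeR and 0.0471 by DESeq2). With the miR-145 mimic Cd9 was at -0.39 ± 0.12 and Cd81 at 0.47 ± 0.18, and 0 of 4 tested were called by edgeR or DESeq2. Of the 4, 2 passed at an unadjusted p under 0.05, beside 13.4% of all genes.

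**Figure D4:**
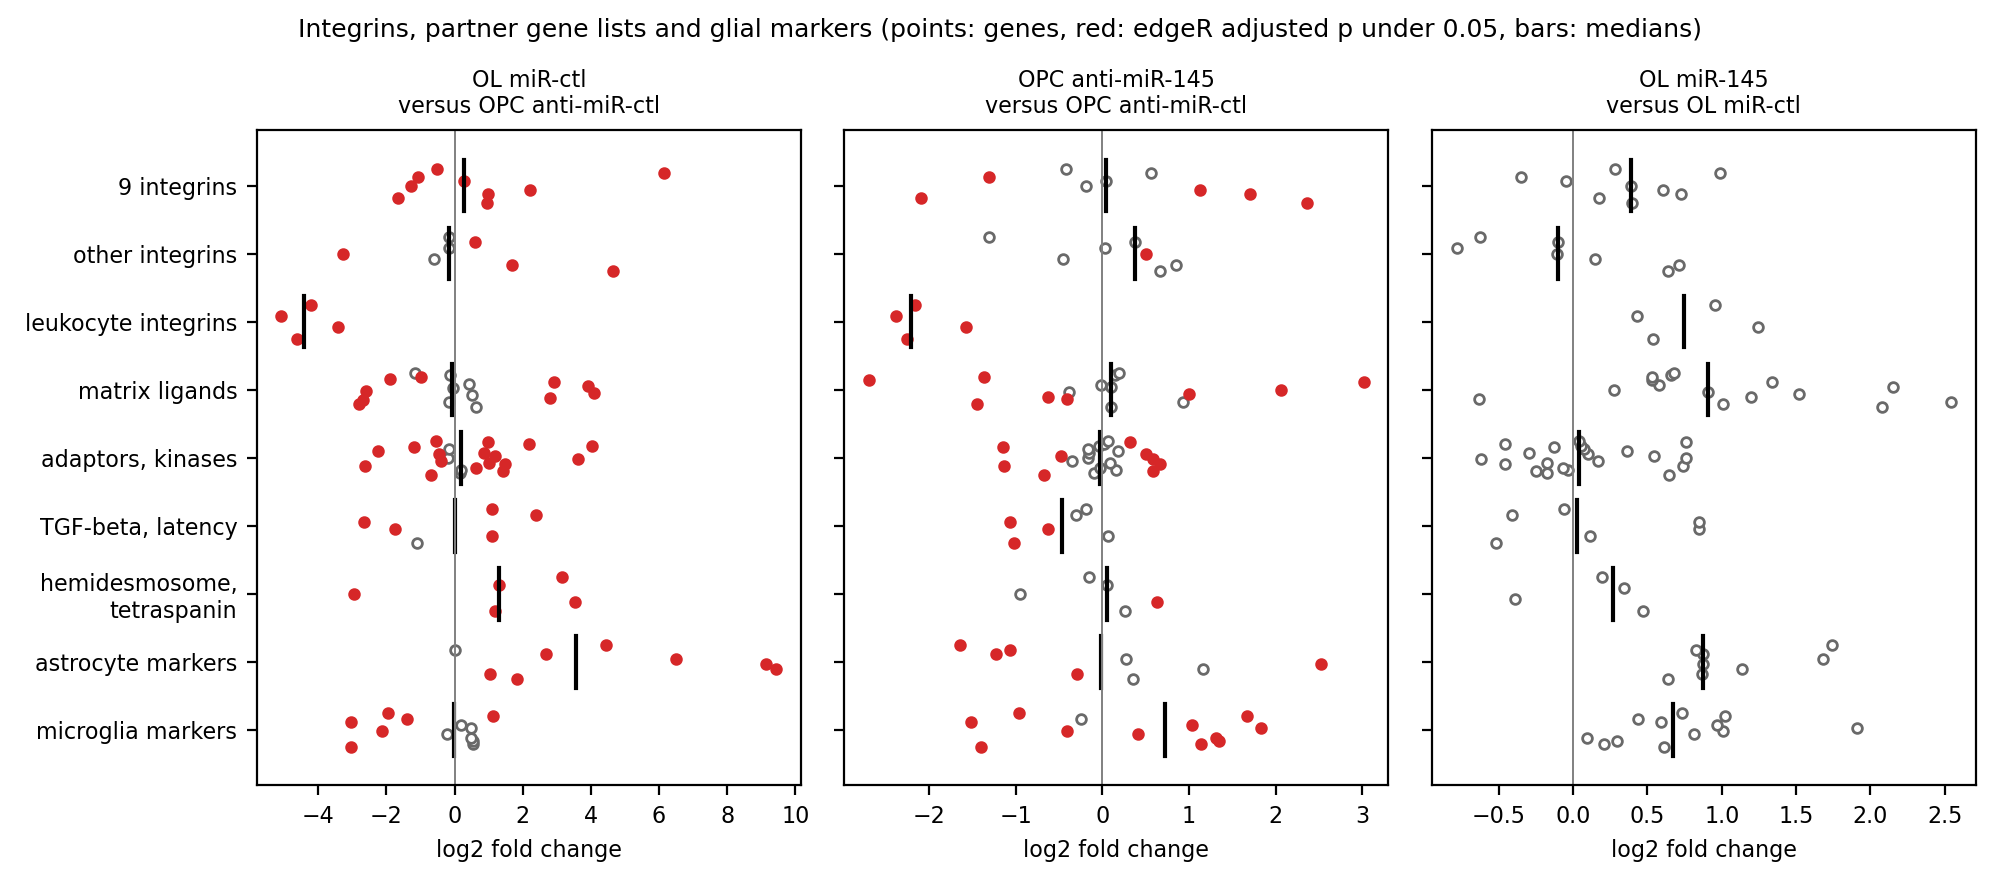
Log2 fold change (horizontal axes, scaled separately) of each gene on 9 lists in 3 comparisons, with 1 point per gene, red where edgeR's adjusted p was under 0.05, and a black bar at the list median. All 4 leukocyte integrins lie below 0 in the 2 comparisons against OPC anti-miR-ctl, and matrix ligands (median 0.91) and astrocyte markers (median 0.88) lie mostly above 0 with the miR-145 mimic.

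With both mimics, 0 genes of these lists were called by edgeR. The ligands had a median of 0.55 and Tnc, which encodes tenascin-C, was at 140 against 67.7 CPM (1.06 ± 0.14, DESeq2 adjusted p = 2.55e-05, edgeR adjusted p = 0.777), beside Lama2 (2.11 ± 0.39). The smallest p among adaptors were those of Lims2 (-0.46 ± 0.14) and Fyn (-0.38 ± 0.14). On the other lists they were those of Itga9 (-0.66 ± 0.32), Itga2b (0.56 ± 0.27), Itgam (0.64 ± 0.30), Itgb2 (0.28 ± 0.23), Nrros (0.62 ± 0.27), Tgfb2 (-0.34 ± 0.19), Dst (0.33 ± 0.13) and Cd9 (-0.32 ± 0.15), none of them called by DESeq2. Against miR-145 alone 0 genes of these lists were called by edgeR or DESeq2, and 2 passed at an unadjusted p under 0.05, both of them ligands, Lamb2 (-0.40 ± 0.12) and Tnc (0.39 ± 0.14).

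The pattern of each chain over the 10 libraries was set beside 12025 other genes by Pearson's correlation of log2 CPM. Libraries of a group share a treatment and a stage, so these values are descriptions. The gene most like Itgb4 was Ehd2 (r = 0.996), that most like Itga7 was Tmem150a (0.993) and that most like Itgav was Msrb3 (0.993). For Itgb1 it was Pcdhb7 (0.995), for Itga5 Tank (0.984), for Itga6 Dclk1 (0.978), for Itgb3 Tmem132d (0.947), for Itga3 Lyve1 (0.945) and for Itgb8 Fndc3b (0.936). Ranked by Spearman's rho, Fndc3b remained first for Itgb8 and Pcdhb7 shared the first place for Itgb1 with Ccdc47. Other genes came first for Itga3 (Cfap157 and Kitlg, rho = 0.976), Itga5 (P4ha2, 0.964) and Itgb3 (Tmprss2, 0.964). For Itga6 it was P2ry12 (0.988), a gene on the microglia marker list, ahead of Dclk1 (0.964). Several genes tied for the first place for Itga7, Itgav and Itgb4. Within the list, Itga7 and Itgb4 varied together (r = 0.94), and Itga6 and Itgb3 varied oppositely (r = -0.91).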

How the data were processed

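Sequencing libraries were made with a stranded mRNA kit. According to the submitters' processing notes and the study's methods, reads were quantified with Salmon 0.12.0 against rat GENCODE transcripts and imported with tximport, and the authors deposited estimated counts per gene, not normalized. Estimated counts were rounded to whole numbers here. The authors also deposited a DESeq2 table with gene names, a mean, a log2 fold change with its error, a statistic and p-values. Only its gene names and Entrez numbers were used (14561 genes had a symbol).

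Genes reaching 5 counts in 2 or more libraries of a comparison were fitted with edgeR 4.0.16 (TMM, glmQLFit, glmQLFTest) in R 4.3.3, each comparison on its own libraries. P-values were adjusted by Benjamini-Hochberg over all genes tested and called under 0.05. The SE of a log2 fold change is its size over the root of the F statistic, and 95% intervals use the test's degrees of freedom. Replicates of every group differed by more than sampling noise (chi-square over genes), so each library was counted once. Alternatives were DESeq2 1.42.0, its size factors, other filters, the 5 groups fitted jointly, a replicate term and leaving out each library. The script was tested on simulated data. The rule for named genes took every listed integrin, the 2 genes of each other list with the smallest unadjusted edgeR p in a comparison, any marker at 0, and the gene most like each integrin. In the comparisons with both mimics not every marker it picks is printed. The members and lists were chosen with earlier results of these data known. Figures were drawn with matplotlib 3.10.9. No per-sample column was left unmapped.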

Additional observations from a re-analysis of the deposited data

How the results depend on the processing

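Each of the 5 counts of called integrins was recomputed under DESeq2, DESeq2's size factors, no filter, a filter of 10 counts, the 5 groups fitted jointly, a replicate term and each library left out. The first 4 changed no call of an integrin, and Itgb4 could not be fitted in OPCs with the filter of 10 counts. With the replicate block, 4 chains were called higher with the miR-145 mimic (Itga6, Itga7, Itgav, Itgb4) where 0 had been, beside 14.7% of all 15461 genes tested, Itgb1 was no longer called between stages (adjusted p = 0.0649), and the log2 fold change of Itgb3 with both mimics against miR-145 alone became 0.012 from -0.02, without a call. It changed no other call of an integrin. Neither the labels nor the study's methods say that a number marks a culture shared between groups. Deviations of libraries with the same number correlated at 0.404, 0.468 and 0.631 in the OL comparisons, -0.152 in OPCs and 0.0668 between stages. With 1 library left out, the called chains ranged from 4 to 9 between stages and from 5 to 7 in OPCs. The lone library is then assumed to vary like the other group. Directions changed for Itga5 (-0.41 to 0.59) and Itgb3 (-0.83 to 0.017) with the miR-145 mimic. With both mimics against miR-ctl they changed for Itga5 (-0.47 to 0.24), Itgav (-0.13 to 0.44) and Itgb1 (-0.081 to 0.0048), and against miR-145 alone for Itga5 (-0.67 to 0.34), Itga6 (-0.42 to 0.11), Itgb1 (-0.042 to 0.051), Itgb3 (-0.38 to 0.46) and Itgb8 (-0.29 to 0.025). In OPCs the direction changed for Itgav (-0.44 to 0.031). Over all genes, the replicate block called 2272 with the miR-145 mimic, 132 with both mimics and 184 between them, DESeq2 called 649, 106 and 9, and the joint fit called 79, 0 and 0, against 0 for each by the edgeR fit of 4 libraries. Dropping the filter gave 1 call with both mimics. In OPCs the joint fit called 2657 against 4348, and leaving out a library gave 2348 to 7133. Between stages leaving out a library gave 4780 to 10306 against 9042. In all, 414 of 449 values for single chains kept their direction and side of the threshold. The cause of these changes was not tested. Counts were lowest for Itgb4 in OPCs, at 4 to 10 a library, followed by Itgb3 at 32 to 131 and Itga3 at 76 to 438, and the effect of depth on these chains was not tested.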
